A study of Mus musculus with 6 samples.

Results

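The genes described here are 36 genes of ferroptosis, iron handling and antioxidant defence, listed by name for their known roles, with earlier results of these data known. All 36 were among the 21362 gene names of the deposited count table, and 33 had a mean over the libraries of 1 CPM or more (CPM, the read count relative to the scaled library total). The study made 6 RNA-seq libraries from mouse CD4+ T cells, the lineage of helper and regulatory T lymphocytes, to compare regulatory T cells with and without sorafenib, an oral inhibitor of several protein kinases. Titles and cell type are all that the labels record of a library, so its treatment, strain, age, dose and time remain unknown here. For that reason the libraries form no groups, and nothing below compares treatment with control. They are numbered 1 to 6 as in their titles, and each series of 6 values follows that order. A gene's range is the ratio of its highest to its lowest library on the log2 CPM scale with a prior count of 2, which shrinks the ranges of low genes.

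Ferroptosis is a form of cell death in which iron drives the peroxidation of membrane lipids. Cells oppose it by importing cystine, building glutathione from it and letting the selenium enzyme GPX4 reduce lipid peroxides, while the FSP1 protein regenerates ubiquinol in the membrane as a parallel defence. Thioredoxins, peroxiredoxins, superoxide dismutases and catalase remove other oxidants, the transcription factor NRF2 switches on many of these genes under oxidative stress, and iron regulatory proteins set how much iron is taken up and stored. Activated T cells take up large amounts of iron and cystine, and T cells that lack GPX4 are known to die by ferroptosis. Sorafenib is itself known as a ferroptosis inducer in some tumour cells.

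Slc7a11, which had the widest range of the 33 members at 1 CPM or more, is known to be switched on by the stress factor ATF4, so the bases before its start site are shown first. They come from RefSeq (build GRCm38.p6, chr3:50443614-50443863, minus strand) and are written from 250 bases before the start to the start. The capitals mark letters that match TGATGNAA on either strand, a pattern of the C/EBP-ATF response element through which ATF4 acts.
Slc7a11: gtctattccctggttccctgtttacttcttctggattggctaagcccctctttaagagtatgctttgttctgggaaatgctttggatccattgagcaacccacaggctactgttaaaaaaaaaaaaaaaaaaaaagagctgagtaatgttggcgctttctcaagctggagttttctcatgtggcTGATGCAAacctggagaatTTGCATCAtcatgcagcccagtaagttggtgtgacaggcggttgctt
The matches lie 66 to 59 bases before the start on the strand of the gene and 47 to 40 bases before it on the opposite strand. Of the 31 members with a promoter in the table (300 bases, 250 before and 50 after the start), Slc7a11 was the 1 that held the pattern, or 3.23%, beside 4.51% of all 27025 genes, so the members as a set held it about as often as other genes. A match describes letters and does not show binding.

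The antioxidant response element, to which NRF2 binds with small MAF proteins, was searched as TGACNNNGC on both strands of the same windows. It was found at 7 of the 31 members, or 22.6%, and at 14.0% of all 27025 genes in the table. This difference was not tested. Gclc, Gsr, Hmox1, Prdx6 and Slc40a1 had no promoter in the table, so they were not searched. The matches are shown because they let the members be read beside the level of Nfe2l2, the NRF2 gene, given further on. Each is written on the strand that reads TGACNNNGC, with 10 bases on each side and the matched letters in capitals.
Nfe2l2, 240 to 232 bases before the start, chr2:75704885-75704913, minus strand: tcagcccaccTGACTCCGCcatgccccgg
Gclm, 134 to 126 bases before the start, chr3:122245413-122245441, minus strand: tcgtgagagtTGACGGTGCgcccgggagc
Prdx1, 133 to 125 bases before the start, chr4:116685456-116685484, minus strand: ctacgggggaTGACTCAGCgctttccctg
Txnrd1, 92 to 84 bases before the start, chr10:82859104-82859132, minus strand: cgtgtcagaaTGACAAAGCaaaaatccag
Sod1, 56 to 48 bases before the start, chr16:90220696-90220724, minus strand: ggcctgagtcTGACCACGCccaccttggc
Ncoa4, 44 to 36 bases before the start, chr14:32165735-32165763, plus strand: aggcggggcgTGACCTGGCcggtagggta
Srxn1, bases 29 to 37 after the start, chr2:152105542-152105570, minus strand: tgtctcactcTGACCTAGCtgcccactgc
The Prdx1 match also contains TGACTCA, the site of AP-1 factors, which overlaps the searched pattern. Coordinates are those of GRCm38.p6, an older build than the GRCm39 named by the submitters' processing notes.

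Iron-responsive elements are short RNA hairpins in untranslated regions to which the iron regulatory proteins bind when iron is low. They were searched in GENCODE transcripts (release M21, GRCm38) as a cytosine, 5 bases, the loop CAGTGN with any last base but G, and 5 bases that pair with the first 5. Such a hairpin was found in an untranslated region of 4 of the 36 members and of 122 of 21877 coding genes, or 0.558%. All 4 are iron genes, and the loop is in capitals with T standing for U.
Ftl1, 5′ untranslated region, chr7:45459779-45459807, minus strand: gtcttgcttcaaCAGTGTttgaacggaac
Fth1, 5′ untranslated region, chr19:9982732-9982760, plus strand: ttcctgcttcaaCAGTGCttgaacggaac
Slc40a1, 5′ untranslated region, chr1:45925465-45925493, minus strand: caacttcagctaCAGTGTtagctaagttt
Tfrc, 3′ untranslated region, chr16:32631219-32631247, plus strand: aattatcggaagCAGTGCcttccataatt
Tfrc, 3′ untranslated region, chr16:32631598-32631626, plus strand: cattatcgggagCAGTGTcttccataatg
Tfrc, 3′ untranslated region, chr16:32631663-32631691, plus strand: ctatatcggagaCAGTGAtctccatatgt
Tfrc, 3′ untranslated region, chr16:32631710-32631738, plus strand: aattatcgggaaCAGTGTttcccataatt
Binding to a 5′ element is known to block translation, and binding to the 3′ elements of Tfrc to stabilise the messenger RNA.

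Total counts over genes lay between 32435799 and 36316162. Between any pair among libraries 1, 2 and 3, from 33 to 54 genes differed at least 2-fold, and between any pair among libraries 4, 5 and 6 from 29 to 40. The 9 other pairs differed in 543 to 623 genes. Libraries 1, 2 and 3 had 1.90% to 2.02% of counts on mitochondrially encoded genes and libraries 4, 5 and 6 had 2.37% to 2.45%. Scaling factors ran from 0.958 to 0.967 in libraries 1, 2 and 3 and from 1.03 to 1.04 in the others. With plain total counts in place of these factors, the median gene deviated from its own median by between -0.07 and 0.06 log2 units depending on the library, a spread of 0.12. The 10 T cell markers summed to between 2468 and 2981 CPM. Cd4 was between 412 and 482 CPM, while of the CD8 chains, which mark another T cell lineage, Cd8a was under 1 CPM in every library and Cd8b1 was between 8.15 and 9.57 CPM. Of 14 macrophage markers 11 were in the table and 6 were at or under 3 counts throughout. Cd68, the 1 with a mean of 1 CPM or more, was between 8.68 and 12.1 CPM. The other macrophage markers summed to at most 0.809 CPM. In bulk samples fewer cells of a type and less RNA per cell cannot be told apart.

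Per length, the ferritins and the cytosolic superoxide dismutase were the most abundant members. Ftl1, the ferritin light chain, had a median of 651 FPKM over the 6 libraries, Sod1 388 FPKM and Fth1, the ferritin heavy chain with the ferroxidase activity, 349 FPKM. Txn1 (thioredoxin) followed with 154 FPKM, and Gpx4 with 97.9 FPKM. These 5 did not overlap: Sod1 ran from 360 to 428 FPKM and Fth1 from 335 to 351 FPKM, and the lowest library of Ftl1 was at 548 FPKM. Gpx4, from 93.4 to 104.6 FPKM, did overlap its next neighbour Prdx2, from 85.5 to 98.5 FPKM. At the other end stood genes that the cells scarcely used. Slc7a11 had a median of 0.288 FPKM, Nqo1 0.0704 FPKM and Steap3 0.0333 FPKM, and Slc40a1 was listed at 0 in 5 libraries.

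**Figure D1:**
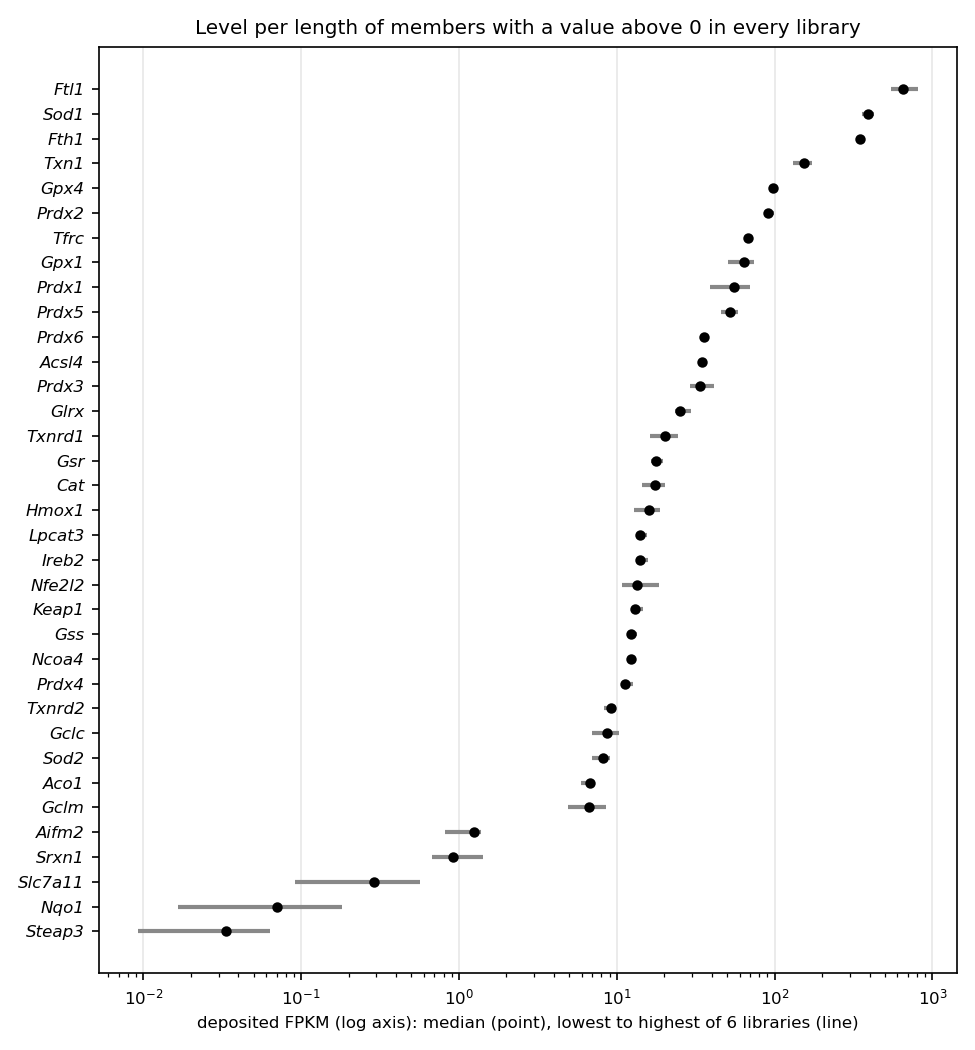
Deposited FPKM on a log axis for the 35 members with a value above 0 in every library, with the median as a point and a line from the lowest to the highest of the 6 libraries. The members span from 0.0333 FPKM for Steap3 to 651 FPKM for Ftl1, and the longest lines belong to Nqo1, Steap3 and Slc7a11 at the low end.

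Most members ranged under 1.5-fold, as did most genes. Of the 33 measured members, 2 ranged at least 2-fold, which is 6.06%, beside 10.5% of the 11516 genes that passed the same 1 CPM minimum. At 1.5-fold the count was 6 of 33, or 18.2%, beside 27.6% of all genes. The median range was 1.27-fold in the members and 1.29-fold in all genes. Among the 30 members at 10 CPM or more, 0 ranged 2-fold and 3 ranged 1.5-fold, beside 3.33% and 13.5% of all genes at that level. Counting error was small at this depth. The 95% counting intervals of the highest and lowest library lay apart in 31 of the 33 members and in 85.0% of all genes, and in 28 of 30 beside 88.2% at 10 CPM or more, so these shares are near the background. The genes at 2-fold were Slc7a11 and Srxn1, and Prdx1, Gclm, Nfe2l2 and Aifm2 were added at 1.5-fold. Without library 1, Srxn1 ranged 1.77-fold, Gclm 1.47-fold and Nfe2l2 1.44-fold, so that Slc7a11 alone remained at 2-fold. Nfe2l2 also ranged 1.44-fold without library 4, and Aifm2 ranged 1.23-fold without library 2.

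**Figure D2:**
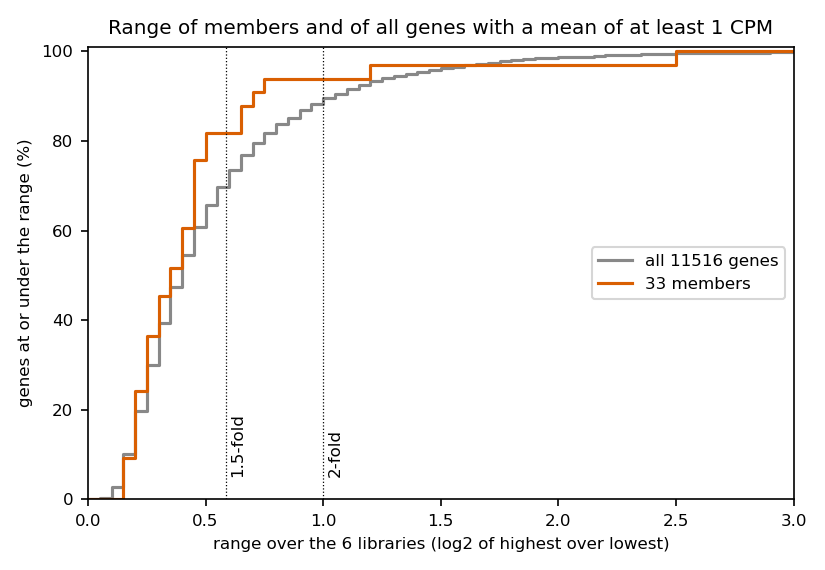
Share of genes (%) at or under each range, where the range is the log2 of the highest over the lowest library, for the 33 measured members and for all 11516 genes at that minimum. At the dotted 2-fold line 2 of 33 members and 10.5% of all genes lie to the right, and the last step of the members is Slc7a11.

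Cystine import and glutathione synthesis held the widest range among the 33 measured members. Slc7a11 encodes the light chain of the cystine-glutamate exchanger. Its counts were 28, 38, 31, 194, 145 and 162, which gave 0.901, 1.10, 0.889, 5.12, 4.17 and 4.55 CPM. Libraries 4, 5 and 6 were each far above libraries 1, 2 and 3, with no overlap, and the highest 95% bound among the low libraries, 1.51 CPM in library 2, lay under the lowest bound among the high ones, 3.52 CPM in library 5. The range was 5.46-fold, or 3.49-fold on the deposited FPKM scale with a pseudocount of 0.1. These are small numbers of reads for so deeply sequenced libraries. Slc3a2, which encodes the heavy chain that carries this transporter and others to the membrane and was named for that role, was far more abundant and nearly level, at 277, 274, 275, 303, 299 and 295 CPM.

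Marker sums of several cell types had the same 3 libraries at the top or the bottom as Slc7a11 and the other members with such an order. The 5 regulatory T cell markers summed to 4201, 4140, 4095, 2683, 2724 and 2943 CPM, the reverse of Slc7a11, and all 5 were at 1 CPM or more. Foxp3, the master factor of regulatory T cells and 1 of the 5, ran against that sum at 7.37, 7.66, 7.86, 11.9, 13.4 and 11.2 CPM. Nearly all of that sum came from Il2ra and Ctla4, with Tnfrsf18, and Ikzf2 was level at 23.6, 24.1, 25.1, 25.4, 26.5 and 23.4 CPM. The summed T cell markers were likewise lowest in libraries 4, 5 and 6, but single T cell markers differed. Cd28 was lowest there too, at 848, 786, 783, 524, 510 and 507 CPM. Cd4 had the reverse order, at 436, 426, 412, 480, 475 and 482 CPM. Cd3e had neither, at 208, 216, 203, 201, 200 and 218 CPM. The 5 B cell markers summed to 4.86, 5.58, 5.48, 8.17, 7.79 and 7.70 CPM, with 3 of the 5 at a mean of 1 CPM or more and 0 of them at or under 3 counts in every library. The 5 dendritic cell markers, 2 of them at or under 3 counts throughout, summed to between 4.27 (library 3) and 7.24 CPM (library 5). Zbtb46 made up most of it and had that order, which Flt3 and Itgax did not. The 9 erythroid markers, 4 of them at or under 3 counts throughout, summed to between 5.85 (library 4) and 9.91 CPM (library 2), of which Epor gave from 4.59 to 8.30 CPM. The mitochondrial share and the scaling factor were also higher in libraries 4, 5 and 6. Their part in the results on Slc7a11 and the other members was not tested.

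The enzymes that build glutathione differed among themselves. Gclc, the catalytic subunit of glutamate-cysteine ligase, which makes the first and rate-limiting step, stood at 25.4, 27.6, 25.9, 34.7, 33.2 and 33.7 CPM. Gclm, the modifier subunit of the same enzyme, stood at 10.6, 13.4, 11.6, 17.0, 16.6 and 14.3 CPM, a range of 1.60-fold. Both subunits were lowest in library 1 and highest in library 4, though for Gclm the interval of library 6, 13.1 to 15.6 CPM, overlapped that of library 2, 12.2 to 14.7 CPM. Gss, the synthetase of the next step, ranged 1.14-fold, from 23.4 to 26.6 CPM, and was 1 of the 2 measured members whose highest and lowest intervals overlapped. Gsr, the reductase that returns oxidised glutathione to its reduced form, went the other way from Gclc and ranged from 42.2 to 55.0 CPM, with libraries 1, 2 and 3 as the highest.

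Gpx4, the lipid peroxide reductase at the centre of ferroptosis control, was among the most level of the measured members. Its values were 114, 114, 119, 117, 109 and 118 CPM, a range of 1.09-fold. Library 5 was the lowest and no library was far from the rest. Gpx1, the cytosolic glutathione peroxidase that removes hydrogen peroxide, stood at 60.4, 55.6, 60.6, 71.6, 72.1 and 74.9 CPM, so that each of libraries 4, 5 and 6 was above each of the other 3. Glrx, the glutaredoxin that takes glutathione off proteins, was highest in libraries 1, 2 and 3 and ranged from 29.6 to 40.4 CPM. The level of Gpx4 is uncertain, since 61.7% of the 50-base stretches of its transcript also occur in other annotated transcripts, those of 2 pseudogenes, whereas Gpx1 had 0 such stretches.

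The NRF2 axis was uneven. Nfe2l2 encodes NRF2 itself and stood at 43.3, 46.4, 47.0, 67.3, 62.4 and 55.4 CPM, highest in library 4 and lowest in library 1, a range of 1.56-fold. Its range was 1.70-fold with plain total counts. Keap1, the adaptor that sends NRF2 to destruction, stood at 61.0, 60.7, 58.5, 54.3, 59.9 and 63.7 CPM, with library 4 the lowest and upper libraries that changed with plain total counts. Known targets of NRF2 did not share 1 order of libraries. Srxn1, the sulfiredoxin that repairs overoxidised peroxiredoxins, stood at 5.05, 3.70, 3.93, 2.61, 2.21 and 2.31 CPM and was highest where Nfe2l2 was lowest, with a range of 2.25-fold, or 1.95-fold on the FPKM scale. Hmox1, the haem oxygenase that frees iron from haem, stood at 21.2, 28.4, 26.8, 28.3, 22.6 and 23.7 CPM, with libraries 2, 3 and 4 above libraries 1, 5 and 6. Nqo1, the quinone reductase often used to read NRF2 activity, was all but silent, with 4, 3, 2, 22, 16 and 12 reads. That is at most 0.580 CPM, and its interval in library 4 was 0.364 to 0.878 CPM, beside 0.00695 to 0.207 CPM in library 3.

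Members with the printed antioxidant response pattern likewise fell into different orders. Gclm, Prdx1, Txnrd1 and Nfe2l2 were highest in libraries 4, 5 and 6 under each of 3 scalings, namely TMM, DESeq2 size factors and plain totals. Srxn1 was highest in libraries 1, 2 and 3 under the same scalings, while the upper libraries of Sod1 and Ncoa4 changed with the scaling.

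**Figure D3:**
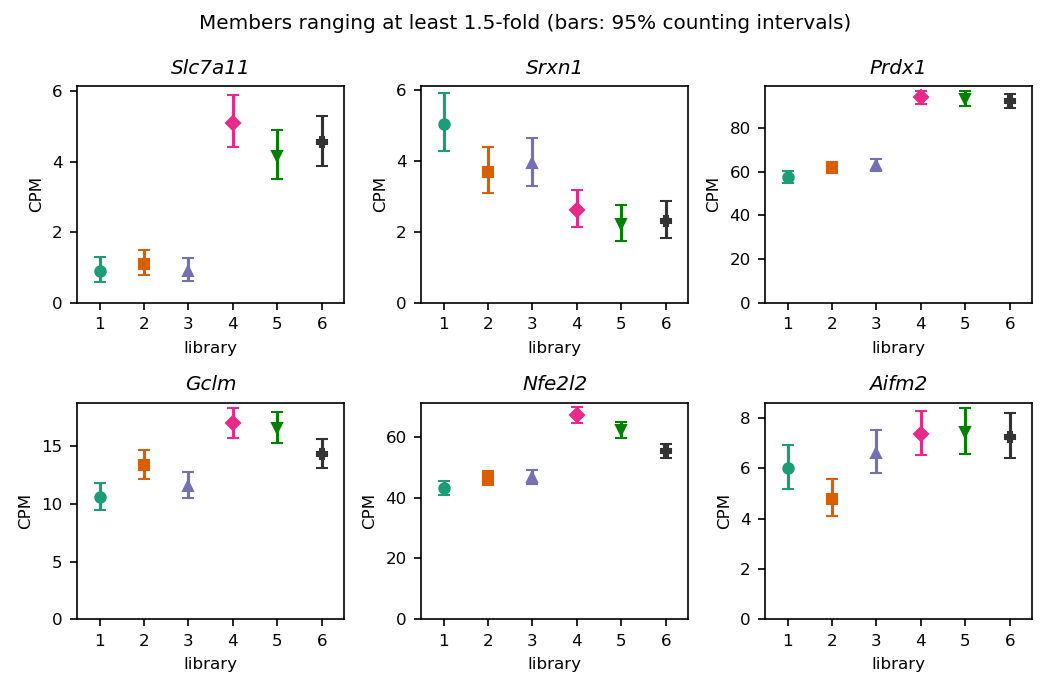
CPM in each of the 6 libraries for the 6 members that ranged at least 1.5-fold, each panel with its own axis from 0 and bars for 95% counting intervals. Slc7a11 and Prdx1 show the cleanest steps between libraries 3 and 4, Srxn1 runs the other way, and in Aifm2 library 2 is the lowest.

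The thioredoxin system, which reduces disulphides in proteins, ranged under 1.5-fold throughout. Txn1 stood at 144, 144, 148, 175, 174 and 175 CPM, with each of libraries 4, 5 and 6 above each of the others and a range of 1.21-fold. Txnrd1, the cytosolic selenium reductase that recharges thioredoxin, stood at 68.1, 75.1, 76.7, 93.2, 94.6 and 86.3 CPM. Its range of 1.39-fold passed 1.5-fold with plain total counts, at 1.51-fold. Txnrd2, the mitochondrial counterpart, ranged 1.21-fold, from 16.2 to 19.6 CPM, with library 2 the highest and its upper libraries changing with plain total counts.

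Peroxiredoxins are thiol peroxidases that take their electrons mostly from thioredoxin, and the 6 members had opposite orders of libraries. Prdx1, the abundant cytosolic form, stood at 57.6, 61.9, 63.0, 94.2, 93.6 and 92.5 CPM, a range of 1.63-fold and the third widest of the measured members. Prdx2, its close cytosolic relative, stood at 153, 154, 158, 128, 132 and 129 CPM. The libraries that were high for Prdx1 were thus low for Prdx2, with no overlap in either gene. Prdx5, found in mitochondria, peroxisomes and cytosol, was likewise highest in libraries 1, 2 and 3 and ranged from 55.7 to 77.9 CPM. Prdx3, the mitochondrial form, was higher in libraries 4, 5 and 6 and ranged from 43.3 to 57.1 CPM. Its interval in library 2, 44.7 to 49.3 CPM, overlapped those of libraries 5 and 6, and without library 4 it ranged 1.18-fold. Prdx4 of the endoplasmic reticulum was highest in library 3, at 38.4 CPM, and lowest in library 5, at 30.2 CPM. Prdx6, which reduces phospholipid peroxides, ranged 1.12-fold, from 93.1 to 104 CPM, and its upper libraries changed with plain total counts. Of the 50-base stretches of the Prdx1 transcript 10.9% occur in other transcripts, and of Prdx2 8.96%.

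Superoxide dismutases turn superoxide into hydrogen peroxide, and catalase breaks that down. Sod1, the copper-zinc enzyme of the cytosol, ranged 1.09-fold, from 239.7 to 261 CPM, with 23.1% of its stretches shared with other transcripts. Sod2, the manganese enzyme of mitochondria, ranged from 27.7 to 33.0 CPM and Cat, catalase, from 38.3 to 49.9 CPM. Both were highest in libraries 4, 5 and 6 under each of the 3 scalings, by small amounts.

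**Figure D4:**
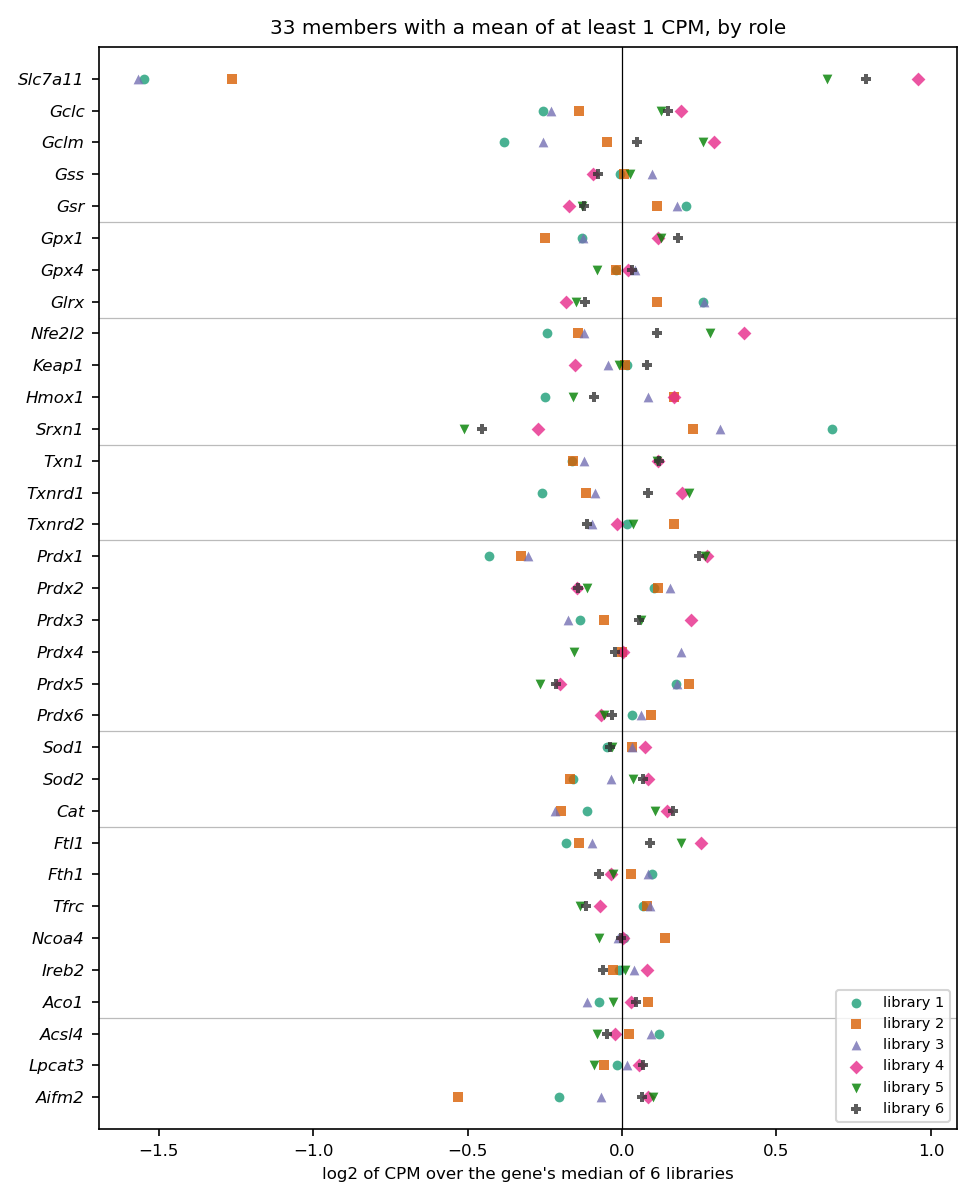
Log2 of the CPM of each library over the gene's own median of the 6 libraries, for the 33 measured members in order of role, with grey lines between roles and 1 symbol for each library. Slc7a11 spreads far beyond the others, Gpx4 and Sod1 are among the tightest, and Prdx1 and Prdx2 show opposite orders.

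The ferritins and Tfrc were abundant. Of the 6 measured iron members, all above 10 CPM, 0 ranged 1.5-fold, beside 13.5% of all genes at that level, so that a count of 0 in 6 genes is near the background. Ftl1 stood at 555, 572, 589, 753, 719 and 670.4 CPM and ranged 1.36-fold, the widest of them, with libraries 4, 5 and 6 the highest. Fth1, its partner in the ferritin shell, stood at 345, 329, 342, 315, 316 and 306 CPM, the opposite order by a smaller amount, although with plain total counts its upper libraries were 1, 3 and 5. Both chains carry a hairpin shown above. Ftl1 is also the least certain member, since 78.9% of its stretches occur in other transcripts, including those of 8 pseudogenes. For Fth1 the share was 4.01%.

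Tfrc, the transferrin receptor through which T cells import iron and the carrier of the 4 printed 3′ hairpins, stood at 368, 372, 374, 335, 319.8 and 324 CPM. Libraries 1, 2 and 3 were the highest under each of the 3 scalings, with a range of 1.17-fold, or 1.08-fold with plain total counts. The transcripts of the iron regulatory proteins barely varied, and no protein was measured. Aco1, the aconitase that becomes the first of these proteins when it loses its iron-sulphur cluster, ranged from 27.2 to 31.2 CPM, and Ireb2, which encodes the second, from 116 to 127 CPM. Ncoa4, the receptor that delivers ferritin to lysosomes, ranged from 43.3 to 50.3 CPM, with 43.1% of its stretches shared with another transcript. Genes of iron export and reduction were near the limit of detection. Slc40a1, the exporter ferroportin, had 1 read in library 4 and 0 in the others, where the floor of 3 counts stood at 0.0843 to 0.0966 CPM and the upper end of the wider exact 95% interval at 0.104 to 0.119 CPM. Steap3, the ferrireductase of endosomes, had 1, 3, 2, 5, 7 and 6 reads, at most 0.201 CPM.

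Among the genes of membrane lipids, Acsl4 and Lpcat3 are known to load the polyunsaturated fatty acids that peroxidise, and Aifm2 encodes FSP1. Acsl4 stood at 205, 192, 201, 186, 178 and 182 CPM, a range of 1.15-fold whose upper libraries changed with plain total counts. Lpcat3 ranged 1.12-fold, from 29.1 to 32.4 CPM, and its highest and lowest intervals overlapped. Aifm2 stood at 6.02, 4.80, 6.63, 7.36, 7.44 and 7.25 CPM. Library 2 was the lowest, with an interval of 4.10 to 5.59 CPM that overlapped 5.19 to 6.95 CPM in library 1, and libraries 4, 5 and 6 lay close together.

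A wider set of 200 genes from the same pathways, listed by role, gives the surroundings of the members. Of these 191 were in the table and 161 reached a mean of 1 CPM. Of the 161, 5 ranged 2-fold or more, or 3.11%, beside the 10.5% of all genes, and 35 ranged 1.5-fold or more, or 21.7%, beside 27.6%. Both shares of all genes depend on level and were 3.33% and 13.5% at 10 CPM or more, and no matching for level was made. The median range of the 161 was 1.27-fold. Without library 3 the count at 2-fold was 2 and without library 6 it was 3. With plain total counts it was 9.

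Of these lists, glutathione and cystine supply had the highest median range, 1.47-fold, with 7 of 14 measured genes at 1.5-fold, beside 27.6% of all genes. Ggct, a cyclotransferase of glutathione breakdown, stood at 3.64, 3.09, 1.92, 3.43, 4.89 and 5.23 CPM, lowest in library 3. Slc1a5, a glutamine transporter and the most abundant of the list per length, stood at 206, 210.0, 221, 267, 281 and 286 CPM. Of the 14 measured NADPH genes, which supply the electrons for both reductase systems, 2 ranged 2-fold. That is 14.3%, near the 10.5% of all genes. Me1, the cytosolic malic enzyme, stood at 2.70, 3.96, 3.21, 1.90, 1.03 and 1.10 CPM, lowest in libraries 5 and 6. Mthfd1, a folate enzyme, stood at 24.2, 26.5, 27.1, 45.2, 48.5 and 46.0 CPM, at the 2-fold line itself, and Tkt, the transketolase of the pentose phosphate pathway and the most abundant, ranged from 304 to 336 CPM.

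The other lists had between 9 and 32 measured genes, too few for a count of 0 or 1 at 2-fold to be told from the 10.5% of all genes. Median ranges were 1.19-fold for the partners and regulators of NRF2, 1.35-fold for its further targets and 1.34-fold for glutathione transferases and other peroxidases, beside 1.29-fold for all genes. None of the 14 measured partners and regulators of NRF2 and none of the 11 measured further targets ranged 2-fold. Sqstm1, the autophagy receptor that competes for KEAP1, ranged from 297 to 377 CPM, and Trp53inp1, a stress gene, from 488 to 714 CPM. Selenoprotein genes had a median range of 1.21-fold over 19 measured genes, with 0 at 2-fold, and Selenow, the most abundant, ranged from 131 to 155 CPM. Further thioredoxin and repair genes had a median range of 1.22-fold over 16 genes, with Txn2, the mitochondrial thioredoxin, from 65.7 to 76.4 CPM. Glutathione transferases and other peroxidases had 0 of 9 at 2-fold, with Gstp1 from 33.0 to 39.5 CPM.

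Further iron genes had 0 of 10 measured members at 2-fold, with Pcbp2, an RNA-binding protein that also carries iron to ferritin, from 782 to 828 CPM. In the haem and iron-sulphur list 1 of 24 genes passed. Flvcr2, a membrane transporter, stood at 0.579, 0.983, 1.66, 1.13, 0.632 and 1.27 CPM, with no order shared by neighbouring libraries, while Cisd3, an iron-sulphur protein of mitochondria, ranged from 47.9 to 59.3 CPM. In the lipid list 1 of 32 genes passed, 10 ranged 1.5-fold, or 31.2% beside 27.6% of all genes, and the median range was 1.35-fold. Fads2, the desaturase that makes polyunsaturated fatty acids, stood at 3.96, 4.22, 3.87, 5.27, 5.95 and 9.73 CPM, with library 6 far above the rest. Scd2, a desaturase that makes monounsaturated ones, was the most abundant gene of that list and ranged from 1842 to 2402 CPM.

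**Figure D5:**
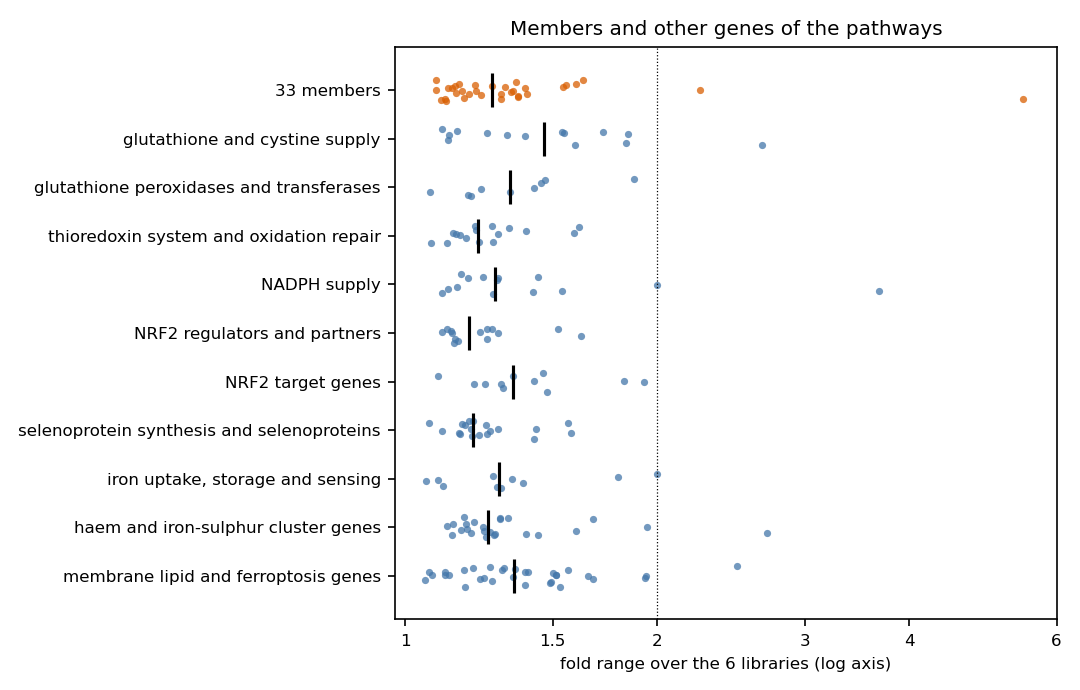
Fold range over the 6 libraries on a log axis for the 33 measured members and for the measured genes of 10 further lists, 1 point for each gene and a vertical line for each median. Slc7a11 and Me1 are the only points beyond 3-fold, and the glutathione and cystine supply list has the highest median, 1.47-fold.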

How the data were processed

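Per the labels' protocols, RNA was extracted with TRIzol and built into VAHTS Universal V5 libraries. Tools listed in the submitters' processing notes, without order or settings, are HTSeq, HISAT2, DESeq2, fastp and R 3.2.0, with the build GRCm39. Annotation and strand setting were not given in the sources used here. What the authors deposited is a table of raw read counts and one of FPKM values per gene, and the FPKM equal the counts divided by a constant length and the library total within a relative 2.86e-06. FPKM is thus another scaling of the same reads.

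Counts were scaled by TMM (edgeR 4.0.16, R 4.3.3), and ranges were taken on log2 CPM (prior count 2) in Python 3.11.15, numpy 2.4.6, pandas 2.3.3 and scipy 1.17.1, with figures from matplotlib 3.10.9. Genes with a mean under 1 CPM were left out of counts. Intervals are exact Clopper-Pearson 95% intervals and cover counting error only, not variation between preparations, cultures or animals. They treat reads as independent, so PCR copies, which are not independent molecules, would make them too narrow. Whether libraries share a mouse or culture is unknown, and no test between libraries was made. Members and lists were chosen with earlier results of these data known. Named with all 6 values were members at 1.5-fold and 14 members chosen by role, and from each further list up to 3 genes at 2-fold. The most abundant gene per length of each further list was also named. Of these, Slc1a5 was given with all 6 values and the others by their lowest and highest library. All 6 values of Gclc, Txn1, Prdx2, Slc3a2 and Foxp3 were added after they were seen, as were those of Ikzf2, Cat, Glrx, Prdx5 and Gsr. The same holds for Cd28, Cd4 and Cd3e. All 36 symbols matched RefSeq, and 31 had a promoter in its table. Alternatives were DESeq2 1.42.0 size factors, plain totals, FPKM with a pseudocount of 0.1, no minimum or one of 5 CPM, the prior count at 0.5 and leaving out each library. The range computation was tested on simulated counts. Sharing of 50-base stretches was counted over the longest GENCODE transcript of each member, without knowing how the authors' counting treats shared reads.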

Additional observations from a re-analysis of the deposited data

How the results depend on the processing

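The count of members at 2-fold, 2 of 33, was 1 with the deposited FPKM values, 0 with a minimum mean of 5 CPM, which leaves Slc7a11 and Srxn1 out, and 4 with no minimum, which adds Nqo1 and Steap3. With 1 library left out it lay between 1 and 2. The count at 1.5-fold lay between 4 and 8 over all alternatives run, and the median range of the members between 1.23 and 1.30. The count of further pathway genes at 2-fold, 5 of 161, was 9 with plain total counts, 8 with FPKM, 2 with a minimum of 5 CPM and 27 with no minimum, and lay between 2 and 5 with 1 library left out. Single member ranges moved beyond their counting interval in 16 of 33 members with plain totals and in 17 of 33 with FPKM. They moved in 0 with DESeq2 size factors or the prior count of 0.5, and in at most 4 with a library left out. A minimum mean only decides which genes are counted, so it could not move a single range. The upper 3 libraries were the same under TMM, DESeq2 factors and totals in 21 of 33 members. They changed in 12, namely Gss, Keap1, Txnrd2, Prdx4, Prdx6, Sod1, Fth1, Ncoa4, Ireb2, Aco1, Acsl4 and Lpcat3. Plain totals changed no measured member's range by more than 0.12 log2 units, the size of the shift of the median gene given above. Depth limits Nqo1, Steap3 and Slc40a1, which had at most 22 reads in a library. No paired analysis was possible because the labels form no groups.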

Other observations

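Among the 161 further pathway genes, the widest gap between sorted libraries put libraries 4, 5 and 6 above 1, 2 and 3 in 35, or 21.7%, beside 16.1% of all genes, and put 1, 2 and 3 above in 26, or 16.1%, beside 18.7%. In glutathione and cystine supply the counts were 6 and 1 of 14 genes, in selenoproteins 6 and 0 of 19. They were 10 and 5 of 32 in the lipid list and 1 and 4 of 11 in further NRF2 targets. The remaining lists were more even. Further thioredoxin and repair genes had 3 and 3 of 16, NADPH genes 2 and 3 of 14 and NRF2 partners 2 and 4 of 14. Further iron genes had 2 and 3 of 10, the haem and iron-sulphur list 3 and 4 of 24, and glutathione transferases and other peroxidases 0 and 0 of 9. These are descriptions, with no test. The genes that follow were picked after their values were seen, from both orders. Cth, the enzyme that makes cysteine from cystathionine, stood at 25.9, 29.1, 29.3, 46.3, 44.2 and 47.7 CPM. Slc1a4, a neutral amino acid transporter, stood at 23.1, 26.1, 25.0, 36.9, 33.5 and 35.2 CPM. Gch1, the first enzyme of tetrahydrobiopterin synthesis, stood at 5.70, 5.43, 7.26, 10.5, 8.80 and 10.6 CPM. In the opposite order, Ggt7, of the gamma-glutamyltransferase family, stood at 18.5, 16.9, 19.0, 11.0, 11.6 and 13.9 CPM. Me2, the mitochondrial malic enzyme, stood at 179, 195, 169, 127, 130.4 and 142 CPM, and Maff, a small MAF partner of NRF2, at 64.8, 65.1, 65.9, 40.6, 42.8 and 42.9 CPM.

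Every gene has a widest gap between its sorted libraries, whatever its size, so such a gap need not mean separate levels. In the members listed below it made up from 33.9% (Fth1) to 83.7% (Txn1) of the gene's range. When the 6 libraries of a gene are sorted, the widest gap on the log2 scale lay between libraries 4, 5 and 6 above and 1, 2 and 3 below in 9 of 33 members, beside 16.1% of all genes. It lay between the same libraries in the opposite order in 8 members, beside 18.7% of all genes, and elsewhere in 16. The first 9 were Slc7a11, Gclc, Gpx1, Nfe2l2, Txn1, Txnrd1, Prdx1, Cat and Ftl1, and the other 8 were Gsr, Glrx, Srxn1, Prdx2, Prdx5, Prdx6, Fth1 and Tfrc. The gaps were taken under TMM scaling only, and Prdx6 and Fth1 had other upper libraries with plain totals. For Cat the 6 values were 41.1, 38.8, 38.3, 49.2, 47.9 and 49.9 CPM, for Glrx 40.2, 36.3, 40.4, 29.6, 30.3 and 30.9 CPM, for Prdx5 75.7, 77.9, 75.8, 58.3, 55.7 and 57.8 CPM and for Gsr 55.0, 51.4, 53.9, 42.2, 43.5 and 43.7 CPM. The labels do not say what separates these libraries.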
